A study of Citrus sinensis and Citrus junos and Citrus trifoliata with 12 samples.

Results

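The roots of Cj trees were compared with the roots of Pt trees, with 2 libraries for each rootstock, 4 of the 12 libraries of the series. Cj is Ziyang xiangcheng (Citrus junos) and Pt is trifoliate orange (Poncirus trifoliata). Both carried the same scion, the navel orange 'Lane Late' (Citrus sinensis), and the trees had stood in one orchard since 2009. All libraries are labelled 140 DAF, and sequencing took place in 2015. The title of the series names saline-alkali stress, but no label marks a library as stressed or unstressed, so the groups compared here differ by their labels in the rootstock alone. The 4 libraries were chosen by their labels (root as tissue, Cj+LL or Pt+LL as graft), not by any measured value. The submitters call the libraries biological replicates, and whether they came from separate trees is not said, so p-values reflect only how much these libraries vary.

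In a grafted citrus tree the scion bears the leaves and fruit, while the rootstock takes up water and minerals. The roots therefore carry the genome of the rootstock and not that of the orange above it. Trifoliate orange is a rootstock known to suffer from iron deficiency on alkaline soils, and Ziyang xiangcheng is used in China as a more alkali-tolerant one. The comparison asks how far the root transcriptomes of the 2 species differ when both stand in one place under one scion.

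The 4 libraries held 9629543 and 9901863 estimated counts in Cj roots, against 9487777 and 9356633 in Pt roots. Together they listed 23795 gene IDs, of which 19053 had a rounded count of at least 1 in every library. None of these IDs matched any identifier in a table of 29331 RefSeq genes of sweet orange, and no file gives a name for an ID. No function can therefore be given for any gene, and the root label could not be checked against root markers. Few IDs are printed, and the genes are described by level, by size of difference and by presence or absence. The libraries share one set of IDs, and the genome they stand for is not given in the sources used here. A lower level of RNA and a poorer match of one species' reads to that gene set cannot be told apart in these data.

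Replicates were close to each other and the rootstocks were far apart. Across the 17613 genes tested, Pearson's r of log2 CPM (counts scaled to library size) was 0.989 between the Cj replicates and 0.986 between the Pt replicates, against 0.848 to 0.856 for the 4 pairs of a Cj with a Pt library. Genes are not independent replicates, so these values are descriptive. The median gene differed by 0.131 log2 units between the Cj replicates and by 0.172 between the Pt replicates. Between a Cj and a Pt library it differed by 0.622 to 0.658 log2 units. At least 2-fold apart were 1.67% of the genes between the Cj replicates, 3.00% between the Pt replicates, and 32.4% to 34.1% between rootstocks.

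The roots of both species concentrated their RNA to a similar degree. The 100 most abundant genes took 24.8% and 23.5% of the counts in the Cj libraries (mean 24.2% ± 0.918, SD, n = 2), against 25.2% and 23.7% in the Pt libraries (mean 24.5% ± 1.06, SD, n = 2). The 1000 most abundant took 54.0% and 53.4% in the Cj libraries, against 53.4% and 51.8% in the Pt libraries. The most abundant gene in all 4 libraries was Cs7g25130. It took 10.5% and 8.92% of the counts in the Cj libraries, against 10.6% and 10.0% in the Pt libraries. The ranges of the groups overlapped, and the gene was not called: the log2 fold change was -0.04 with an SE of 0.12, and edgeR's quasi-likelihood test gave an adjusted p = 0.767.

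Below that gene the rankings parted. By FPKM, a level per length, 62 of the 100 most abundant genes of Cj roots were also among the 100 most abundant of Pt roots, and 723 of the top 1000 were shared. Of the 100 most abundant genes, 21 in Cj roots lay outside the top 200 of Pt roots, and 21 in Pt roots lay outside the top 200 of Cj roots. Genes of at least 100 FPKM numbered 1041 and 1067 in the Cj libraries, against 981 and 975 in the Pt libraries.

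More genes were called different between the rootstocks than not. In whole roots, fewer cells of one type and less RNA per cell cannot be told apart. Of the 17613 genes tested, 11820 (67.1%) were called at an adjusted p under 0.05. The calls were evenly split, with 5900 (33.5%) higher and 5920 (33.6%) lower in Cj roots. Genes called higher in Cj roots made up 44.1% and 44.9% of the counts of the Cj libraries, against 24.6% and 25.5% of those of the Pt libraries. Genes called lower in Cj roots made up 24.3% and 24.6% of the counts of the Cj libraries, against 42.8% and 42.2% of those of the Pt libraries. About as much of the RNA, 30.3% to 32.5% of the counts in every library, lay in the 5793 genes that were not called. The most abundant gene, Cs7g25130, was among them and alone held 8.92% to 10.6% of the counts of each library.

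**Figure D1:**
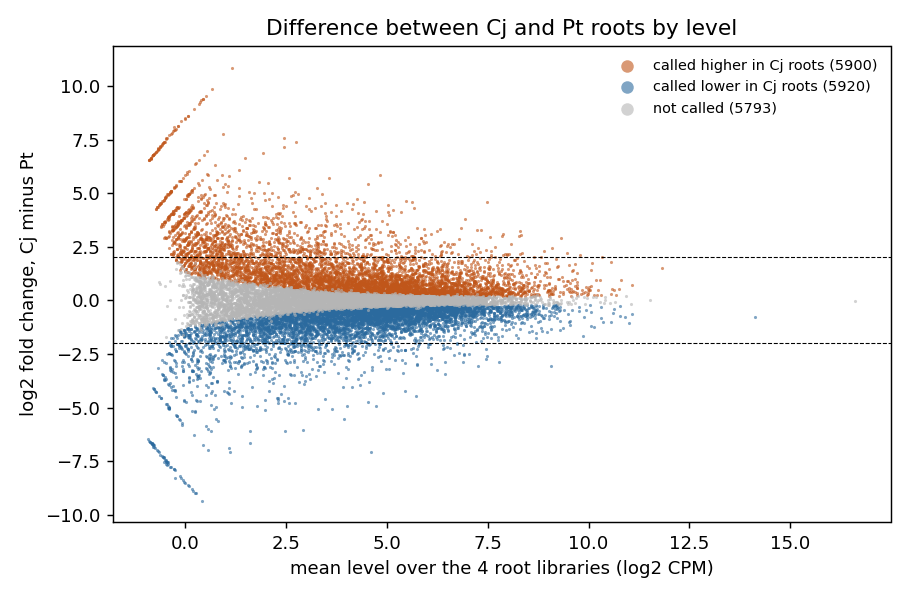
Each point is one of the 17613 genes tested: the mean level over the 4 root libraries (log2 CPM) on the horizontal axis, the log2 fold change of Cj minus Pt roots on the vertical axis, and dashed lines at 4-fold. The 5900 genes called higher and the 5920 called lower in Cj roots fill both sides evenly near 0, and the upper side is denser beyond 4-fold; the slanted streaks at the left are genes at or near 0 counts in one rootstock, whose fitted fold change depends on the prior count.

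Of all calls, 49.1% were at least 2-fold and 18.4% at least 4-fold apart, and the large differences leaned to Cj. The median log2 fold change was 1.12 for genes called higher and -0.89 for genes called lower in Cj roots. At 1.5-fold or more, 4545 were higher and 4271 lower in Cj roots. At least 2-fold were 3231 higher and 2567 lower, and at least 4-fold 1436 (8.15% of the genes tested) higher and 736 (4.18%) lower. At least 8-fold were 658 higher and 289 lower. Among all genes tested, 996 reached 10 counts in both Cj libraries and in neither Pt library, and 516 the reverse. Such genes passed the filter on low counts through the rootstock where they were higher. How much of the lean lies in them was not tested. Fitted fold changes of genes at 0 in one rootstock are not bounds. With each such gene set to the bound that 3 counts over the group allow, 653 higher and 287 lower genes were at least 8-fold apart, and 78 higher and 42 lower at least 32-fold.

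Calls came from the quasi-likelihood test of edgeR on rounded estimated counts, adjusted by the Benjamini-Hochberg method across the genes tested, with 2 residual degrees of freedom. The number at least 4-fold apart was 565 higher and 331 lower on log2(FPKM + 1), over 1.5 times fewer. A refit to the genes with whole counts in every library alone tested 13066 genes and gave 771 higher and 387 lower. These numbers are also over 1.5 times fewer, but on fewer genes. In the fit of all genes, the genes with whole counts in every library gave 744 and 413.

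Among the called genes, the one with the largest gain in Cj roots, measured as the difference in mean CPM, was Cs7g29010. It stood at 5945 and 6274 CPM in the Cj libraries, against 2245 and 2037 CPM in the Pt libraries. Both Cj libraries lay above both Pt libraries, and edgeR's quasi-likelihood test gave a log2 fold change of 1.51 ± 0.09 (SE) with an adjusted p = 2.75e-08. Being called was a condition of the choice of this gene, so the test and the separation are no further support. By FPKM it ranked 8 in Cj roots and 41 in Pt roots. The gene is listed with 1 transcript of 2892 bases, and no function is known for it from the sources used.

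The largest loss in Cj roots among the called genes, chosen in the same way and with the same limit, was that of orange1.1t01308. It stood at 14493 and 12617 CPM in the Cj libraries, against 26497 and 20475 CPM in the Pt libraries. Its Pt replicates lay further apart than its Cj replicates, and the groups did not overlap. The same test gave a log2 fold change of -0.79 ± 0.13 (SE) with an adjusted p = 0.000121. It ranked 3 by FPKM in Cj roots and 2 in Pt roots, so it was among the leading transcripts of both species at unequal levels.

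**Figure D2:**
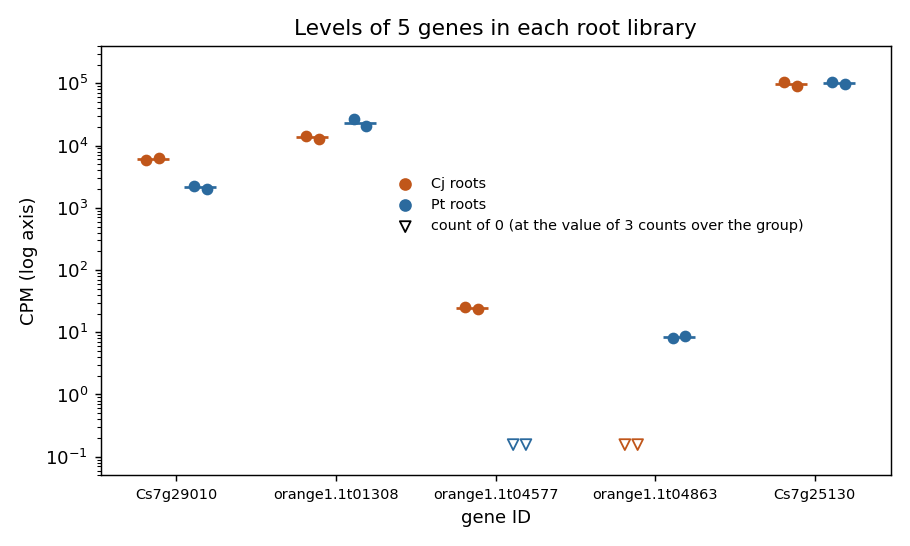
CPM on a log axis in each of the 4 root libraries for 5 genes, with Cj roots in orange, Pt roots in blue, a bar at the mean of each pair and open triangles for a count of 0, drawn at the value of 3 counts over the group. Cs7g29010 and orange1.1t01308 differ at high levels, orange1.1t04577 and orange1.1t04863 have counts in one rootstock alone, and the points of Cs7g25130 overlap between rootstocks.

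The lean of the large differences to Cj was counted at each level of expression. The genes tested were divided into 10 deciles by their mean log2 CPM over all 4 libraries. In the lowest decile 587 genes were higher and 275 lower in Cj roots by 4-fold or more, and in the highest decile the numbers were 41 and 11. In each of the 10 deciles more genes were higher than lower by this measure, and in 9 of the 10 with scaling to library totals only. Large differences became rarer with level: 48.9% of the genes were called at least 4-fold apart in the lowest decile, 8.23% in the fifth and 2.95% in the highest.

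The lowest decile is shaped by the filter on low counts, which a weakly expressed gene passes through the rootstock where it is higher. In that decile 799 genes reached 10 counts in both Cj libraries and in neither Pt library, and 442 the reverse. For calls of any size the lean was not the same at all levels. The share called lower in Cj roots exceeded the share called higher in the deciles from the fourth to the ninth, with 28.0% higher and 33.8% lower in the fourth. In the highest decile 40.2% were higher and 35.7% lower, an order that turned with scaling to library totals only and on log2(FPKM + 0.1).

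**Figure D3:**
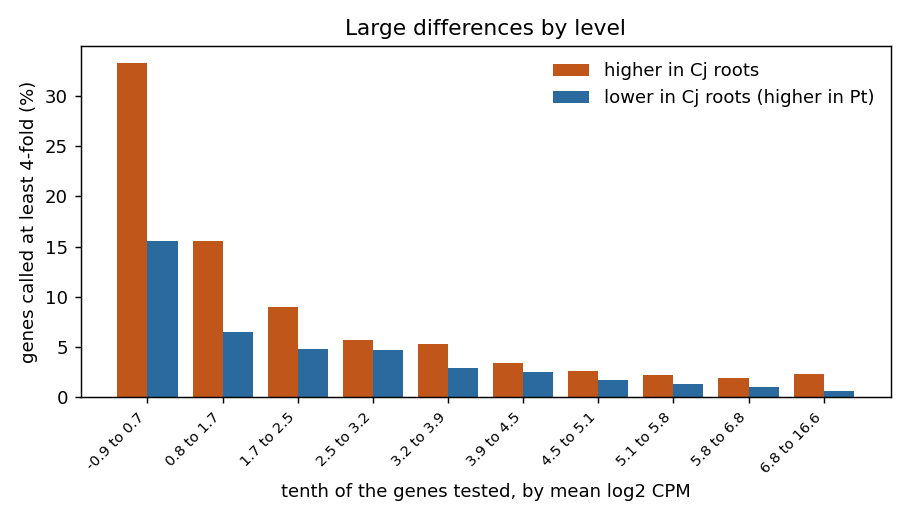
Percentage of genes called higher (orange) and lower (blue) in Cj roots by 4-fold or more, in each decile of the genes tested by mean log2 CPM over the 4 root libraries. The orange bar is the taller in each decile, 33.3% against 15.6% in the lowest and 2.33% against 0.624% in the highest.

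The same counts were taken by FPKM, averaged over all 4 libraries. For a gene with a large difference, that mean is set mainly by the rootstock where the gene is higher. Of 999 genes tested at 100 to 1000 FPKM, 54 were higher and 15 lower in Cj roots by 4-fold or more. Of 7465 genes at 10 to 100 FPKM the numbers were 286 and 155, and of 7911 genes at 1 to 10 FPKM they were 819 and 451. The background for these counts is 8.15% of the genes tested in the direction of higher in Cj roots and 4.18% in the other.

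In Cj roots, higher calls outnumbered lower ones among short genes, and lower calls outnumbered higher ones among long genes. In the shortest decile, with listed lengths of 150 to 789 bases, 37.7% of the genes were called higher and 26.8% lower. In the longest decile, from 3344 to 16611 bases, 24.1% were called higher and 45.2% lower. The median log2 fold change was 0.18 in the shortest decile and -0.21 in the longest, and it was above 0 in the 6 shortest deciles and below 0 in the 4 longest. With scaling to library totals only it was above 0 in 5 deciles, at 0.13 in the shortest and -0.27 in the longest. The median over all genes tested was -0.01.

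This relation to length appeared in every pair of libraries. The median of the shortest decile minus that of the longest was 0.350 to 0.391 log2 units in the 4 pairs of a Cj with a Pt library. Between replicates the same measure was 0.020 in Cj roots and 0.030 in Pt roots. Short genes were also the less abundant ones, with a median level of 1.99 log2 CPM in the shortest decile and 5.08 in the longest. Within the highest quartile of level, 41.2% of the shortest quartile of genes were called higher and 32.4% lower in Cj roots, and 29.1% of the longest quartile higher and 43.9% lower. In the lowest quartile of level both length classes leaned to Cj, with 40.0% higher and 24.0% lower among the shortest and 33.0% higher and 24.3% lower among the longest. The part of RNA quality in this relation was not tested, since the sources used give no measure of it.

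**Figure D4:**
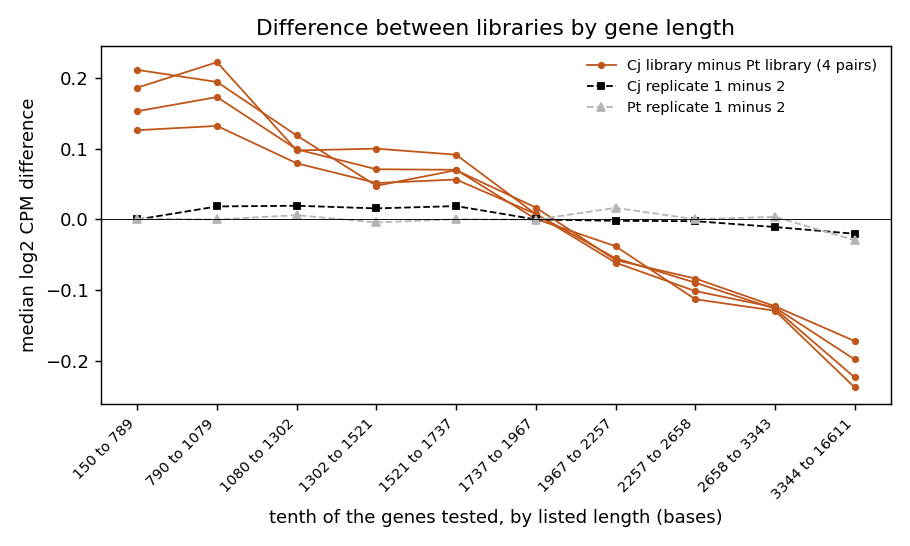
Median log2 CPM difference in each decile of the genes tested by listed length (bases), for the 4 pairs of a Cj with a Pt library (orange) and for the replicates of Cj (black, dashed) and Pt (grey, dashed). The orange lines run downwards between the shortest and the longest decile, while the replicate lines stay within 0.030 of 0.

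The lean of the large differences to Cj was not seen among long genes of moderate or high level. The background was 8.15% higher and 4.18% lower in Cj roots by 4-fold or more. In the longest quartile of length, 37 (4.03%) of 919 genes were higher and 45 (4.90%) lower in the second quartile of level. The numbers were 17 (1.42%) and 22 (1.83%) of 1200 in the third, and 14 and 14 (0.853% each) of 1641 in the highest. In the shortest quartile of length they were 103 (8.38%) and 39 (3.17%) of 1229 in the second quartile of level. They were 43 (5.33%) and 17 (2.11%) of 807 in the third, and 30 (5.49%) and 7 (1.28%) of 546 in the highest. The lowest quartile of level is shaped by the filter on low counts as well. There the numbers were 442 (24.3%) and 206 (11.3%) of 1822 among the shortest genes. Among the longest genes of that level they were 112 (17.4%) and 44 (6.84%) of 643.

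Large differences lay mainly in genes listed with 1 transcript. Of 10569 genes tested with 1 transcript, 16.9% were called at least 4-fold apart. Of 7044 genes with 2 or more, 5.52% were. The shares called at any size were 67.3% with 1 transcript and 66.8% with 2 or more, near the background of 67.1%. The single-transcript genes were the less abundant, with a median level of 3.14 log2 CPM against 4.77 for the others.

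Large differences were also counted separately for genes with divided reads. Estimated counts of a gene that are not whole can arise when a read is divided between genes. Of 4547 genes tested whose count was not whole (to within 0.005) in at least 1 library, 692 (15.2%) were higher and 323 (7.10%) lower in Cj roots by 4-fold or more. Of 13066 genes with whole counts in every library, the numbers in the same fit of all genes were 744 (5.69%) and 413 (3.16%). The genes whose counts were not whole were also weaker, with a median level of 2.90 log2 CPM against 4.16. They were shorter too, with a median length of 1545 against 1799 bases. The part of level and length in this difference was not tested. Genes with divided reads are uncertain, because reads of one copy can be counted for another. All 5 genes named here had such counts in at least 1 library.

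For genes with several transcripts the deposited length varies between libraries, since it depends on which transcripts were found. Among 5616 such genes with at least 50 counts in every library, the median absolute difference in length between rootstocks was 0.0073 log2 units. Between replicates it was 0.0055 in Cj and 0.0063 in Pt roots. The median of the signed difference, Cj minus Pt, was 0.0. Only 30 genes (0.534%) had lengths that did not overlap between rootstocks and differed by at least 0.3 log2 units, 17 longer and 13 shorter in Cj roots. Between replicates 4 genes reached that difference in Cj roots and 8 in Pt roots. Of the 30 genes, 24 were also called in level. The background of 67.1% is over all genes tested, weak ones included, and the share among the 5616 genes was not counted.

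More genes were found in Cj roots alone than in Pt roots alone. With a rounded count of at least 1 in both libraries of one rootstock and 0 in both of the other, 762 genes were present in Cj roots alone and 400 in Pt roots alone. Nearly all of them were faint. Their median count per library was 2.5 in Cj roots and 3.0 in Pt roots where present, so that most were near the limit of what the depth can show. A count of 0 in a library allows a level of up to 0.303 to 0.321 CPM of the library total (3 counts, counting error only).

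The numbers fell as the minimum count rose. At a minimum of 3 counts, 310 genes were present in Cj roots alone and 161 in Pt roots alone, at 10 counts 69 and 54, at 20 counts 21 and 19, at 50 counts 9 and 4, and at 100 counts 1 and 0. With every library thinned to 9356624 counts, 749 and 408 genes were present in one rootstock alone. The count also depends on having both replicates. Leaving out any one of the 4 libraries gave 1207 to 1291 genes in Cj roots alone and 636 to 703 in Pt roots alone, over 1.5 times more. A further 983 genes had counts in 1 Cj library alone and 603 in 1 Pt library alone.

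**Figure D5:**
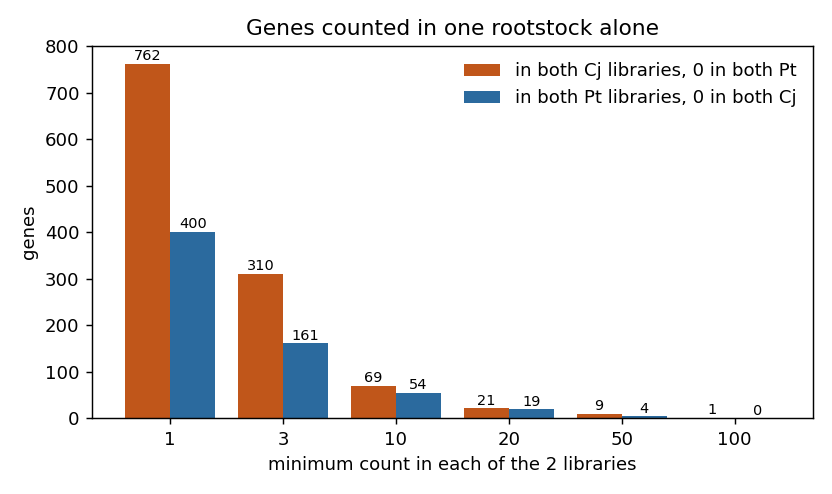
Number of genes present in both libraries of one rootstock and at 0 counts in both of the other, against the minimum count required in each library (Cj alone in orange, Pt alone in blue). The 762 and 400 genes at a minimum of 1 count come down to 69 and 54 at 10 counts, 21 and 19 at 20 counts, and 9 and 4 at 50 counts.

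The genes present in one rootstock alone were short and mostly had a single transcript. Their median length was 927 bases in Cj roots alone and 991 bases in Pt roots alone, against 1555 bases over all 23716 IDs with a rounded count. Of these genes 723 of 762 in Cj roots alone and 381 of 400 in Pt roots alone were listed with 1 transcript, against 68.4% of all IDs. Counts were whole in every library for 442 of 762 and 200 of 400, against 71.1% of all IDs. Of these genes 62 passed the filter in Cj roots alone and 54 in Pt roots alone. A gene that passed with 0 counts on the other side had to differ, so the calls among them are not counted as a result.

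The most abundant gene found in Cj roots alone was orange1.1t04577. It had 236 and 228 counts in the Cj libraries and 0 in both Pt libraries. Its level of 24.2 CPM ± 1.25 in Cj roots (SD, n = 2) was at least 155-fold higher than the level that 3 counts over both Pt libraries would give. It was chosen for its counts of 0 in Pt roots, so no test is given. Its listed length is 627 bases, in 1 transcript.

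Its counterpart in Pt roots was orange1.1t04863. It had 0 counts in both Cj libraries, against 76 and 86 counts in the Pt libraries, or 8.44 CPM ± 0.598 (SD, n = 2). That is at least 54.0-fold lower in Cj roots, by the same bound, again with no test. This gene is listed with 1 transcript of 369 bases.

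Calls were spread over all groups of IDs. The IDs fall into 9 forms that run between Cs1g and Cs9g, and a further form, orange1.1t. The share of tested genes called was 65.2% to 69.4% over the 10 forms, around the background of 67.1%. At least 4-fold apart were 10.3% (Cs3g) to 15.4% (orange1.1t), around the background of 12.3%. Genes of the orange1.1t form were weaker, with a median level of 3.31 log2 CPM against 3.97 for the others.

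Some genes with consecutive IDs shared a large difference. Among genes of the Cs forms, 193 pairs of consecutive listed IDs were both at least 4-fold apart in one direction, 153 higher and 40 lower in Cj roots, and 61 pairs had opposite directions. Of 1662 tested neighbours of genes at least 4-fold higher in Cj roots, 18.4% were themselves at least 4-fold higher, against 7.80% of all tested genes of these forms. Of 873 tested neighbours of genes at least 4-fold lower, 9.16% were at least 4-fold lower, against 4.0% of all tested genes of these forms. For orange1.1t IDs the share was 18.0% of 323 neighbours of higher genes, against 10.2% of that form, and 4.76% of 168 neighbours of lower genes, against 5.19%. The files give no coordinates, so distances between neighbours are not known, and neighbouring copies of one gene can share reads.

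The longest such run held 8 consecutive Cs5g IDs, all higher in Cj roots, with fitted log2 fold changes of 2.11 to 8.11. Levels in Pt roots reached down to 0 CPM, where a fitted fold change depends on the prior count and is not a bound. The 8 genes were weak, at 1.20 to 6.57 CPM in Cj roots and 0 to 0.879 CPM in Pt roots. All 8 had counts that were not whole. The longest run in the other direction held 5 Cs9g IDs with log2 fold changes of -4.58 to -2.25. These stood at 0.153 to 1.98 CPM in Cj roots and 2.03 to 21.4 CPM in Pt roots, and 3 of the 5 had counts that were not whole. In both runs each gene had non-overlapping libraries. Genes of a run had to be called at least 4-fold apart, so this largely follows from the choice and is no separate result. At levels as low as those of the Cs5g run in Pt roots, a gene passes the filter on low counts through Cj roots. Of all genes tested, 41.6% had both Cj libraries above both Pt libraries, and 42.2% had both below. Both runs were picked out with their values known.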

How the data were processed

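Libraries were made from fragmented poly(A) RNA with random primers and PCR, per the labels' protocols, and read on a BGISEQ-500, per the series' design text. The genome build, annotation, aligner, counting tool and strandedness were not given in the sources used here. Overlapping genes and near-identical copies are therefore uncertain.

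The authors deposited one table per library with a length (in bases), an estimated (expected) count and an FPKM per gene. The expected counts, as deposited, carry no scaling for depth; 75.7% to 76.5% of the listed values were whole within 0.005. The authors scaled FPKM by length and library. The deposited lengths (another kind of value, per the file headers) differ between libraries for genes with several transcripts.

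Counts were rounded, and genes absent from a library's table were set to 0. edgeR 4.0.16 (quasi-likelihood test; limma 3.58.1, R 4.3.3) was fitted to the 4 root libraries alone, without covariates, after filterByExpr, which kept 17613 genes and left 6182 untested, with 0.187% to 0.188% of the counts in Cj and 0.129% to 0.139% in Pt libraries. TMM factors were 0.977 to 1.04, and the biological coefficient of variation was 7.02%. CPM uses TMM-scaled library sizes. Standard errors are the log2 fold change over the square root of F. Replicates did not agree within sampling noise (chi-square per degree of freedom 2.86 in Cj and 4.81 in Pt roots), so each counted as 1 library. Totals give the precision, which covers counting error only.

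Alternatives were DESeq2 1.42.0, other scalings and filters, limma on log2(FPKM + 1) and log2(FPKM + 0.1), leaving out single libraries and a replicate block. The named IDs are the called genes with the largest difference in mean CPM, and the strongest genes at 0 in the other rootstock, 1 per direction each, and the most abundant gene. The comparison, rules and classes were chosen with earlier results of these data known. The fit was tested on simulated data with 200 changed genes, as many higher as lower. In the real data most tested genes were called, so that test does not show how the fit behaves here. The other 8 libraries were not used.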

Additional observations from a re-analysis of the deposited data

How the results depend on the processing

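The total called ran from 8916 to 12049 over the 14 alternatives, and genes called higher in Cj roots made up 47.1% to 52.1% of the calls, so no lean of all calls is shown. With each library left out in turn it ran from 9967 to 12049, with the replicate number as a block (replicate block, 1 residual degree of freedom) it was 11509, and with DESeq2 9043. Of the 11820 calls, 8276 (70.0%; 4272 higher, 4004 lower) kept their call and direction in all of 12 alternatives (all but those on whole counts and without the most abundant gene), and 3 were called in the other direction in at least 1. Genes at least 4-fold higher outnumbered those at least 4-fold lower in every alternative, by 1.67 to 2.32 times. Leaving out libraries gave 1476 to 1813 higher and 763 to 887 lower. On log2(FPKM + 1), where the pseudocount shrinks weak genes, there were 565 higher and 331 lower, and with whole counts only, on fewer genes, 771 and 387. The lowest total of calls, 8916, came from whole counts only, where 68.2% of 13066 genes tested were called. The share called was 67.1% in the main fit and 51.3% with DESeq2.

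The labels do not say that a number marks a shared tree or batch. Deviations of same-numbered libraries had a correlation of -0.11 across genes; the crossed replicate block, added after seeing the data, called 12486. No call of a named gene changed in any alternative that held it; with whole counts only they could not be fitted.

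Counts present in one rootstock alone moved with the minimum: 310 and 161 (3 counts), 69 and 54 (10), 21 and 19 (20), 9 and 4 (50), 1 and 0 (100), for Cj and Pt. Without single libraries they ran from 1207 to 1291 and from 636 to 703. The top 100 genes held 21.8% of FPKM in Cj and 21.4% in Pt roots. The length difference (shortest minus longest decile) was 0.34 on log2(FPKM + 1) and 0.35 to 0.41 without single libraries. Counting only calls of at least 4-fold turned the differences in percentage called: from -6.4 to 45.95 points for the lowest minus the highest decile of level, from -4.9 to 18.67 for the shortest minus the longest decile, and from -2.2 to 3.6 for orange1.1t minus the other IDs. For 1 transcript minus several it was 0.5 and became 11.38. Transcript-weighted lengths differed in 322 genes at 0.1 log2 units and in 8 at 0.5. The cause of these moves was not tested except where the construction gives it. Depth limits the genes present in one rootstock alone, most of which lie near 3 counts.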
